A study of Mus musculus with 43 samples.

Results

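Back skin of iNZM mice was compared after 1 dose of UVB, the part of ultraviolet light behind sunburn, and without UVB. The comparison holds 9 of the 43 libraries in the study: 5 from skin taken 24 hours after an exposure to 300 mJ/cm2 (sample numbers 6, 9, 10, 48 and 49) and 4 from unexposed skin (37, 38, 39 and 40). All 19170 genes with a value of 10 or more in at least 4 of the 43 libraries were tested, of 23256 in the table. The mice were females of 10 to 13 weeks. NZM2328 is a mouse line that develops lupus, and iNZM is a name used in the field for NZM2328 animals that lack the receptor for type I interferon, although the sample labels do not define it. Groups of the other lines are cited only where the response is set against theirs: NZM (5 libraries after the same dose, 5 without) and WT (5 and 4), whose strain the labels do not name. A group of 5 iNZM libraries after 5 daily doses of 100 mJ/cm2 is given side by side. The labels do not say that each library came from a separate animal, so the tests measure the spread between libraries.

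UVB damages the DNA of epidermal cells and makes keratinocytes, the main cells of the epidermis, release cytokines and chemokines that draw blood neutrophils into the skin. Injured keratinocytes also leave their normal programme of cornification, in which keratins and envelope proteins are laid down to form the barrier, and switch on stress keratins and antimicrobial proteins. The mouse epidermis further holds Langerhans cells, which present antigen on MHC class II, and a resident population of gamma-delta T cells. Type I interferons act through a receptor of the chains IFNAR1 and IFNAR2, while interferon gamma has a receptor of its own and is a main inducer of MHC genes.

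Values are read counts divided by 1 size factor per library, and are listed throughout in the order 37, 38, 39 and 40 for unexposed skin and 48, 9, 10, 6 and 49 for exposed skin. Depth was 20.27 to 31.28 M reads in the 9 libraries. The basal keratin gene Krt14 stood between 58230 and 207200 in all 9, as the skin label implies. Ifnar1 was at 716 to 851 in unexposed NZM skin and at 326, 374, 368 and 394 without UVB and 579, 406, 544, 449 and 477 after it in iNZM skin, so that every iNZM library lay below every unexposed NZM library. Its reads are nevertheless present, and the table does not show which part of the gene they cover. A gene is called changed at a Benjamini-Hochberg adjusted p below 0.05 in limma, fitted on log2(value + 1) over the 43 libraries. Differences are exposed minus unexposed on that scale, which understates the change of genes with low counts.

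Libraries 6 and 49 of the exposed group stood apart from the other 7. Genes of the hair follicle and hair shaft took 2.59% and 2.12% of their reads. The hair shaft keratin gene Krt35 was at 13.1, 46.7, 25.6 and 21.9 without UVB and 47.2, 19.8, 10.1, 34900 and 26430 after it. The mean level of the 32 hair genes, centred on all 43 libraries, was 7.28 and 6.90 in these libraries and between -3.23 and -2.46 in the other 7. Melanocyte genes followed the same order, at 4.06 and 3.82 against -2.01 to -1.13. The pigment enzyme gene Tyrp1 was at 55.6, 33.1, 16.5 and 31.3 without UVB and 136, 90.1, 47.9, 16210 and 14150 after it. For hair genes the 3 other exposed libraries were near the unexposed level. For melanocyte genes they reached up to -1.13, against -1.44 at most without UVB. Libraries 48, 9 and 10 had 7, 10 and 3 of the 15 melanocyte genes above all unexposed libraries. Of all genes, 33.3%, 32.1% and 32.9% lay above them. Krt35 missed the threshold in limma (adjusted p = 0.242, and 0.0201 in edgeR's quasi-likelihood test). Of the 32 hair genes 1 was called in limma and 29 in edgeR, and of 15 melanocyte genes 3 rose in limma and 12 in edgeR. In limma without 6 and 49, 0 genes of either list rose. Libraries 6 and 49 also had the lowest levels of the 9 for MHC class II, T cell and interferon-gamma-induced genes, and libraries 9 and 10 the highest of the exposed group for neutrophil, monocyte and macrophage genes. Counts over gene lists are therefore given with all 5 exposed libraries and without 6 and 49. The part of hair follicle content in these counts was not tested beyond that. A hair level above 5 was found in 9 of the 43 libraries, all from exposed NZM or iNZM skin, after 1 dose or 5 daily doses. No unexposed library and no WT library reached it. Whether this state is part of the response to UVB was not tested.

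**Figure D1:**
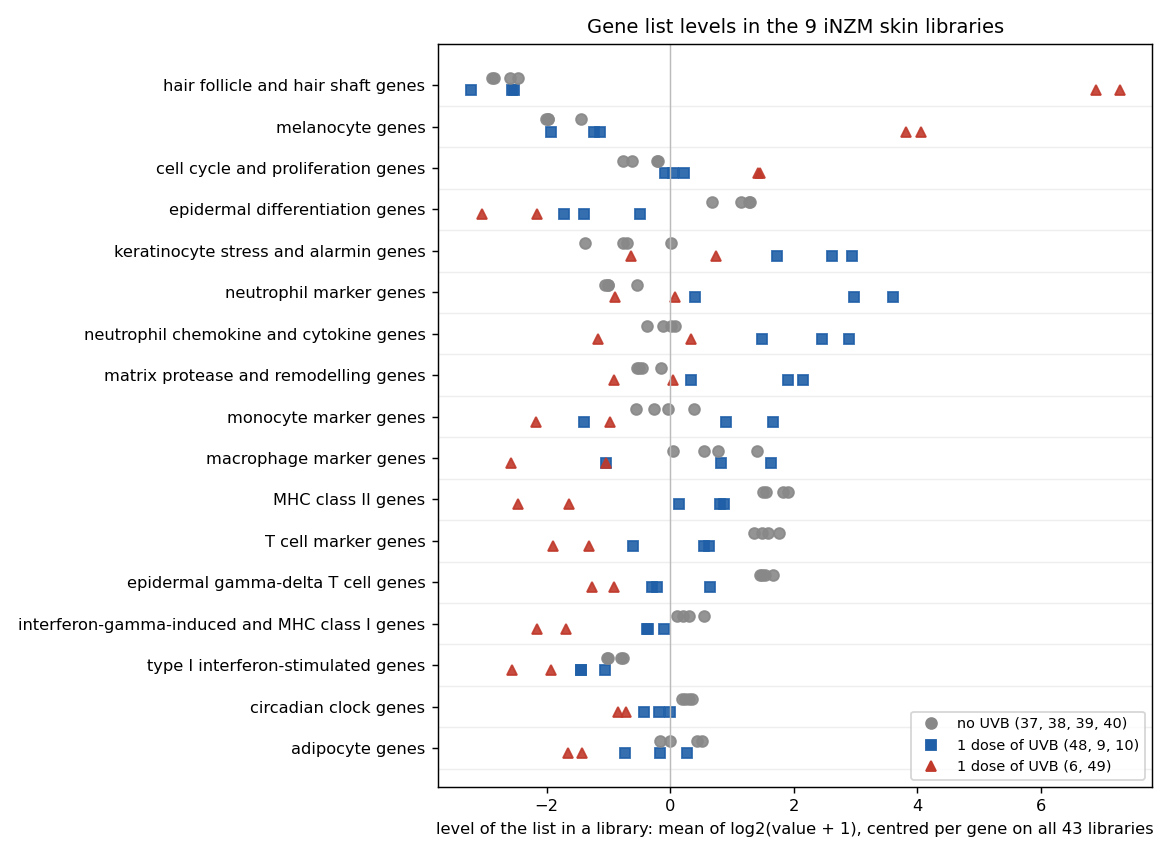
Level of 17 gene lists in the 9 iNZM libraries, as the mean over a list's tested genes of log2(value + 1) centred per gene on all 43 libraries (x axis). Grey circles are unexposed libraries, blue squares are exposed libraries 48, 9 and 10, and red triangles are exposed libraries 6 and 49. The red triangles lie near 7 for hair genes, where all other points are below -2, and they are lowest in MHC class II, T cell and interferon-gamma-induced genes.

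A single dose changed 4833 genes, 25.2% of those tested, with 2451 higher (12.8%) and 2382 lower (12.4%). Without libraries 6 and 49 the count was 3053 (15.9%), with 1511 higher and 1542 lower. Called both times were 1274 of the higher and 1250 of the lower genes. List counts below are to be read against these shares of all 19170 genes, and a list near them shows nothing particular to its members. The groups did not overlap at all for 4036 genes (21.1%), of which 3420 were also called (17.8% of all genes). Counted library by library, between 32.1% and 39.1% of genes lay above all 4 unexposed libraries and between 31.2% and 38.3% below them, with 6 and 49 at the upper end of both ranges.

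Genes for cytokines and an acute-phase protein were among the large rises. Saa3 encodes an acute-phase serum amyloid protein (ENSMUSG00000040026.8, chromosome 7, 46711998 to 46715700 in GRCm38). Its values were 18.5, 17.5, 9.9 and 13.6 without UVB and 507, 3059, 9967, 245 and 297 after it, and it rose by 6.05 ± 0.93 on the log2 scale (SE, limma adjusted p = 1.01e-05). Libraries 9 and 10 were well above the other 3 exposed ones. The rule that chose the largest rises required groups that do not overlap. Il24, a cytokine gene of the interleukin 20 family that acts on keratinocytes, was at 0, 0, 2.48 and 0 without UVB and 172, 377, 328, 10.6 and 151 after it. It rose by 6.58 ± 0.94 on the log2 scale (SE, limma adjusted p = 3.41e-06) and was next to absent without UVB. Csf3 encodes granulocyte colony-stimulating factor, which drives neutrophil production. It had no reads in the 4 unexposed libraries and stood at 42.3, 280.2, 213, 3.86 and 15.2 after UVB, a mean at least 150-fold higher when the unexposed group is set to a floor of 3 reads over the group (counting error only). Cxcl5, a chemokine gene for neutrophils, was at 26.1, 11.7, 12.4 and 27.1 without UVB and 348, 2607, 5727, 85.8 and 307 after it and rose by 5.15 ± 1.19 on the log2 scale (SE, limma adjusted p = 0.00146).

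Rises of similar size were measured for genes of other kinds, among them a growth factor, a protease, a tubulin and an adaptor. Epgn encodes epigen, a ligand of the EGF receptor. It was at 87.2, 122, 52 and 66.7 without UVB and 1945, 4830, 3240, 472 and 714 after it and rose by 4.34 ± 0.57 on the log2 scale (SE, limma adjusted p = 1.07e-06). Adamts4, a protease gene that cleaves proteoglycans, was at 9.8, 9.72, 2.48 and 22.9 without UVB and 160.4, 1073, 793, 106 and 200.1 after it and rose by 4.98 ± 0.76 on the log2 scale (SE, limma adjusted p = 9.49e-06). Tubb3, a tubulin gene best known from neurons, was at 3.27, 1.95, 4.12 and 16.7 without UVB and 126, 309.9, 282, 844 and 808 after it and rose by 6.02 ± 0.89 on the log2 scale (SE, limma adjusted p = 6.2e-06). For Tubb3 libraries 6 and 49 were the highest, and without them the difference was 5.26 ± 1.00 (adjusted p = 0.000305). Sh2d5, an adaptor protein gene, was below 10 in all unexposed libraries and at 330, 478, 447, 75.2 and 264 after UVB. It was the only tested gene below 10 in every unexposed and at 50 or more in every exposed library. Dsg4, a desmosomal cadherin gene of the hair shaft, was at 8.72, 0, 8.25 and 3.13 without UVB and 14.8, 93.4, 26.1, 3213 and 2734 after it. Its rise of 5.54 ± 2.0 (adjusted p = 0.0383) rested on 6 and 49 and became 2.96 ± 2.15 (adjusted p = 0.409) without them. It was also lost without any 1 of the libraries 6, 49, 37, 38, 39 and 40.

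The deepest falls left several genes nearly silent. Pyy encodes the hormone peptide YY. It was at 2690, 414, 700.4 and 1219 without UVB and 0, 2.2, 1.68, 0 and 2.02 after it and fell by 9.01 ± 1.00 on the log2 scale (SE, limma adjusted p = 4.55e-08). Kcnj16, a gene for an inwardly rectifying potassium channel, was at 759, 692, 1126 and 864 without UVB and 3.94, 1.1, 4.2, 0 and 7.07 after it and fell by 7.97 ± 0.79 on the log2 scale (SE, limma adjusted p = 9.72e-09). Apol7a, a gene of the apolipoprotein L family, was at 151, 192, 285 and 254 without UVB and 0, 17.6, 0, 0 and 2.02 after it and fell by 6.59 ± 0.71 on the log2 scale (SE, limma adjusted p = 3.23e-08). In total 10 genes went from 50 or more in every unexposed library to below 10 in every exposed one: Pyy, Kcnj16, Comp, Dab1, Oas1e, the pseudogene Mrgprb9-ps and 4 genes known by clone names. This count, like that of Sh2d5, was made after the values were seen. Fcgbp, a gene for a large mucin-like binding protein, was at 66190, 44310, 45050 and 39150 without UVB and 2234, 2710, 1058, 146 and 493 after it and fell by 5.80 ± 0.74 on the log2 scale (SE, limma adjusted p = 5.62e-07). Il20ra, which encodes a receptor chain for the interleukin 20 family that Il24 belongs to, was at 327, 255, 327 and 316 without UVB and 0.984, 15.4, 6.72, 0.964 and 11.1 after it and fell by 5.75 ± 0.60 on the log2 scale (SE, limma adjusted p = 2.27e-08).

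**Figure D2:**
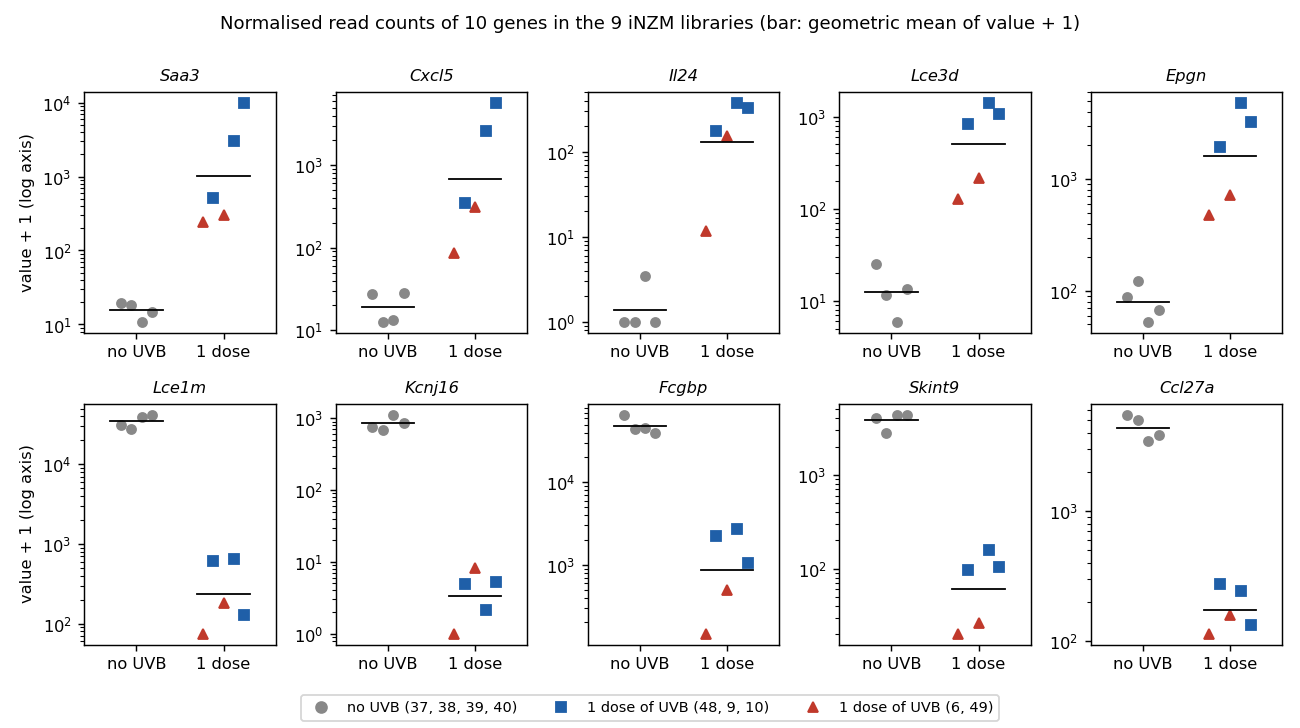
Normalised read counts plus 1 (log axis) of 10 genes in the 4 unexposed and 5 exposed iNZM libraries, with a bar at the geometric mean and red triangles for libraries 6 and 49. For all 10 genes the exposed and unexposed libraries do not overlap, which the rule that chose the largest rises and falls required. For Saa3, Cxcl5, Il24, Lce3d, Epgn, Fcgbp and Skint9 the red triangles are the lowest of the exposed libraries.

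Of 36 keratinocyte stress and alarmin genes 25 rose and 3 fell (median log2 difference 2.75, against 0.00 over all genes), against 26 and 2 without libraries 6 and 49. Krt6a, the stress keratin of wounded epidermis, was at 3410, 2681, 3189 and 2876 without UVB and 16110, 46710, 33360, 6113 and 10300 after it and rose by 2.52 ± 0.45 on the log2 scale (SE, limma adjusted p = 7.42e-05). S100a8, a subunit of the antimicrobial protein calprotectin, was at 415, 200.3, 446 and 213 without UVB and 5041, 14640, 9133, 451 and 1366 after it. It rose by 3.48 ± 0.81 on the log2 scale (SE, limma adjusted p = 0.00169), and library 6 came close to the highest unexposed one. S100a7a, a mouse relative of human psoriasin, was at 13.1, 3.89, 2.48 and 6.26 without UVB and 152, 288, 324, 508 and 359 after it and rose by 5.56 ± 1.25 on the log2 scale (SE, limma adjusted p = 0.00113), and here 6 and 49 were highest. Library 6 had 11 of the 36 genes above all unexposed libraries and 10 below, where 39.1% of all genes lay above and 38.3% below. Its level of this list, -0.64, was within the unexposed range of -1.37 to 0.02. Library 9 had 33 above, against 32.1% of all genes.

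Epidermal differentiation genes fell in 32 of 38 and rose in 0 (median -2.50), and in 23 of 38 without libraries 6 and 49. Krt10, the keratin of the cell layers above the basal one, was at 204200, 131800, 270300 and 314500 without UVB and 16790, 39470, 26330, 1484 and 3055 after it. It fell by 4.52 ± 0.76 on the log2 scale (SE, limma adjusted p = 3.88e-05), and without 6 and 49 the difference was -3.08 ± 0.73 (adjusted p = 0.00288). Lor encodes loricrin, the main protein of the cornified envelope. It was at 161400, 110000, 207000 and 216800 without UVB and 14610, 38330, 11160, 934 and 4786 after it and fell by 4.44 ± 0.75 on the log2 scale (SE, limma adjusted p = 3.66e-05). Flg2, a filaggrin relative, was at 17360, 14610, 14440 and 14990 without UVB and 2007, 1884, 1358, 424 and 404 after it and fell by 3.97 ± 0.53 on the log2 scale (SE, limma adjusted p = 1.04e-06). Flg itself, the filaggrin gene, was at 7863, 7617, 3586 and 3283 without UVB and 2445, 2864, 398, 1504 and 1873 after it. The groups did not overlap, yet its difference of -1.77 ± 0.79 missed the threshold (adjusted p = 0.0948). The desmosomal gene Dsg1a was at 19940, 16950, 27310 and 30180 without UVB and 3114, 6155, 5553, 6110 and 5039 after it and fell by 2.19 ± 0.30 on the log2 scale (SE, limma adjusted p = 1.58e-06), with library 48 the lowest.

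Late cornified envelope genes, which sit together on chromosome 3, moved in opposite directions by subgroup. The families in this paragraph and the next were looked at after their values were seen, and the reads of close copies could be split between them by the counting. All 14 Lce1 genes, which serve normal cornification, fell, by between 1.85 and 7.20 on the log2 scale. Lce1m (ENSMUSG00000027912.8, chromosome 3, 93017810 to 93019060 in GRCm38) was at 31170, 27460, 39270 and 42060 without UVB and 611, 639.6, 129, 74.2 and 183 after it. All 6 Lce3 genes, which are known from wounded and psoriatic epidermis, rose, by between 3.42 and 5.68. Lce3d (ENSMUSG00000043472.10, chromosome 3, 92957390 to 92958505 in GRCm38) was at 24, 10.7, 4.95 and 12.5 without UVB and 830.5, 1421, 1060, 128 and 213 after it and rose by 5.37 ± 0.67 on the log2 scale (SE, limma adjusted p = 4.21e-07). Among 12 Sprr2 genes, small proline-rich envelope proteins of the same chromosome, 7 rose and 3 fell. Sprr2f was at 20.7, 4.86, 14 and 9.38 without UVB and 683, 1385, 1023, 83.8 and 105 after it, while Sprr2a1 was at 207, 30.1, 102 and 109.5 without UVB and 0, 3.3, 3.36, 0 and 1.01 after it.

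All 11 Skint genes fell, with log2 differences from -5.98 to -2.37. They encode membrane proteins of the epidermis and thymus, of which the founding member selects the gamma-delta T cells that live in the epidermis. Skint9 was at 4068, 2812, 4395 and 4329 without UVB and 94.5, 155, 102, 19.3 and 25.3 after it and fell by 5.98 ± 0.55 on the log2 scale (SE, limma adjusted p = 2.94e-09). Of 7 Mrgprb genes, receptors of the Mas-related family, 4 fell, including Mrgprb3 at 539, 435, 1127 and 1146 without UVB and 6.89, 17.6, 27.7, 5.78 and 1.01 after it. The mast cell receptor Mrgprb2 was at 27.2, 37, 17.3 and 41.7 without UVB and 36.4, 9.89, 10.1, 1.93 and 3.03 after it, and its fall (adjusted p = 0.0214) was lost without 6 and 49 (adjusted p = 0.371) and without any 1 of the libraries 6, 49, 38 and 40.

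Basal keratinocyte genes were split, with 3 of 15 higher and 5 lower (4 and 1 without 6 and 49). The integrin gene Itga3 was at 1374, 1204, 1003 and 1082 without UVB and 2432, 3690, 2688, 2499 and 2945 after it and rose by 1.28 ± 0.26 on the log2 scale (SE, limma adjusted p = 0.000302). Krt14 differed by -0.26 ± 0.35 (adjusted p = 0.605) and Trp63, the master regulator of the epidermal lineage, by -0.12 ± 0.18 (adjusted p = 0.648), and both differences were smaller than the spread. Barrier lipid genes fell in 8 of 24 (33.3%) and rose in 1. Without 6 and 49, 2 fell and 1 rose, where 1542 and 1511 of all 19170 genes did. Lipm, an epidermal lipase gene, was at 1679, 1294, 2408 and 2727 without UVB and 498, 771, 676, 1074 and 1003 after it and fell by 1.32 ± 0.28 on the log2 scale (SE, limma adjusted p = 0.000688).

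Of 23 genes for neutrophil chemokines and inflammatory cytokines 8 rose and 1 fell (median 1.40), against 10 and 0 without libraries 6 and 49. Besides Cxcl5, Csf3 and Il24, the group holds Cxcl1, a chemokine gene for neutrophils, at 123, 127, 148 and 67.8 without UVB and 1523, 1631, 2120, 236 and 357 after it. It rose by 2.91 ± 0.75 on the log2 scale (SE, limma adjusted p = 0.00395). Il6, the gene for interleukin 6, was at 0, 0.972, 1.65 and 5.21 without UVB and 45.3, 218, 259.6, 3.85 and 21.2 after it and rose by 4.36 ± 0.84 on the log2 scale (SE, limma adjusted p = 0.000221). Library 6 overlapped the unexposed range for Il6. Il1b, the gene for interleukin 1 beta, was at 111, 61.3, 49.5 and 58.4 without UVB and 246, 769, 1365, 42.4 and 113 after it. Il1b was not called in the main limma fit with all libraries (adjusted p = 0.107). With all libraries it was called higher in edgeR (adjusted p = 0.0176) and DESeq2 (0.00246). The same held in limma with sample quality weights (0.0177) or with the hair follicle level as covariate (0.0142). Without 6 and 49 it differed by 3.24 ± 0.95 (limma adjusted p = 0.0162). Cxcl2 was at 24, 13.6, 11.6 and 10.4 without UVB and 53.1, 57.1, 320.2, 4.82 and 16.2 after it. It was not called in limma (adjusted p = 0.296), but was called higher in DESeq2 (adjusted p = 0.0252). Il1a fell, at 346, 317, 417 and 455 without UVB and 69.9, 246, 189.9, 33.7 and 59.6 after it (adjusted p = 0.00351, and 0.0917 without 6 and 49).

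The upstream sequence of Cxcl1 and Il6 is shown because both rose and hold a match to the NF-kB motif, the site of a transcription factor of inflammation. Each line is the 250 bases before the RefSeq start in GRCm38.p6, 5′ to 3′ on the gene's strand, with the match in capitals (chr5:90890995-90891244, plus strand, for Cxcl1, where 2 matches overlap, and chr5:30012864-30013113, plus strand, for Il6).
Cxcl1: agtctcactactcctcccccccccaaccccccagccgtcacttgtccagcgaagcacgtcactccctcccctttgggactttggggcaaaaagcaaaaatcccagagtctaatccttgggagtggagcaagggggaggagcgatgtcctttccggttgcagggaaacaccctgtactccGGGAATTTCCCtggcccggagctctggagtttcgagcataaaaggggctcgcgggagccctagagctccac
Il6: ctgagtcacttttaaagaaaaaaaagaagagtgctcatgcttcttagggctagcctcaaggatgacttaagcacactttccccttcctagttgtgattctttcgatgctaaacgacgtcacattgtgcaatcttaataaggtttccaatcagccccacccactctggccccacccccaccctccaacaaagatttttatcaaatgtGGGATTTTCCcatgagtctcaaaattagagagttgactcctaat
Such a match, on either strand, was present in 6 of 16 promoters of this list (37.5%) and in 8.23% of the 27025 genes with a promoter in the RefSeq table. It was also in 6 of 20 AP-1 and immediate-early promoters (30%). Lists that mostly fell held it too, with 8 of 13 promoters of NF-kB subunit and feedback genes (61.5%) and 7 of 26 of interferon-gamma-induced genes (26.9%). Whether the motif goes with the rises was not tested. A match is a string of letters and not a measured site. The NF-kB subunit and feedback genes themselves fell in 10 of 16 and rose in 1, with 5 falls without library 6 alone, 6 without 49 alone, and 3 falls and 2 rises without both. Tnfaip3, a brake on NF-kB signalling, was at 859.6, 696, 826 and 670.5 without UVB and 243, 519.8, 549.6, 315 and 323 after it and fell by 1.03 ± 0.26 on the log2 scale (SE, limma adjusted p = 0.00368).

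Neutrophil marker genes rose in 12 of 18 and fell in 1 (median 2.85), and in 13 and 1 without 6 and 49. Only 5 rose when only the iNZM groups were fitted. Clec4e, a pattern receptor gene of myeloid cells, was at 2.18, 0, 0 and 3.13 without UVB and 54.1, 243, 671, 10.6 and 34.4 after it and rose by 5.43 ± 1.08 on the log2 scale (SE, limma adjusted p = 0.000302). Trem1, an activating receptor gene of neutrophils and monocytes, was at 0, 0, 0 and 3.13 without UVB and 9.84, 329.7, 310.1, 0.964 and 11.1 after it and rose by 4.42 ± 0.99 on the log2 scale (SE, limma adjusted p = 0.00115), and library 6 was within the unexposed range. Its adjusted p was 0.077 when only the iNZM groups were fitted. The formyl peptide receptor gene Fpr2 was at 0, 0, 0 and 1.04 without UVB and 7.87, 63.7, 166, 4.82 and 6.06 after it and rose by 4.12 ± 1.00 on the log2 scale (SE, limma adjusted p = 0.00234). The exposed libraries spread widely: the list's level was 3.61 and 2.97 in 10 and 9, 0.41 in 48, 0.08 in 49 and -0.90 in 6, against -1.05 to -0.54 without UVB. Ly6g, the defining surface marker, stayed below the filter, with no reads without UVB and a mean of 4.63 after it. Il1r2, the decoy receptor for interleukin 1 and the 1 member that fell, was at 1835, 1759, 1581 and 1636 without UVB and 161, 521, 739, 76.1 and 102 after it and fell by 2.96 ± 0.47 on the log2 scale (SE, limma adjusted p = 1.74e-05). In whole skin, fewer cells of a type and less RNA per cell cannot be told apart.

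Monocyte and macrophage genes differed among the exposed libraries. Of 20 monocyte genes 1 rose and 2 fell (5% and 10%, against 12.8% and 12.4% of all genes), or 1 and 1 without 6 and 49. Libraries 9 and 10 had 13 and 14 of the 20 above all unexposed libraries, while 48, 6 and 49 had 16, 15 and 14 below them. Of 20 macrophage genes 0 rose and 3 fell (median -1.18), against 0 and 1 without 6 and 49 (median -0.15). Library 10 had 12 of these above all unexposed libraries and library 9 had 2, while 48, 6 and 49 had 18, 18 and 17 below them. Of all genes, 32.1% and 32.9% lay above the unexposed libraries in 9 and 10, and 33.7%, 38.3% and 36.5% below them in 48, 6 and 49. Ccl2, a chemokine gene for monocytes, was above all unexposed libraries in 9 and 10, below them in 6 and 49 and within their range in 48, at 95.9, 94.3, 181 and 121 without UVB and 133, 537, 528, 26 and 30.3 after it and differed by 0.08 ± 0.70 (adjusted p = 0.948). Adgre1, the macrophage marker F4/80, was at 315, 388, 545 and 1018 without UVB and 29.5, 311, 934, 8.67 and 48.5 after it and was called lower (adjusted p = 0.034, but 0.41 without 6 and 49 and 0.363 in edgeR). That call was also lost without any 1 of the libraries 6, 48, 49, 39 and 40. Library 10 was within the unexposed range, and 6, 48 and 49 were the lowest. Arg1, an arginase gene, was at 1820, 2016, 2688 and 2432 without UVB and 789, 648, 244, 386 and 334 after it and fell by 2.34 ± 0.30 on the log2 scale (SE, limma adjusted p = 7.09e-07), with no overlap.

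Of 24 matrix protease and remodelling genes 9 rose and 1 fell (13 and 0 without 6 and 49, and 4 higher when only the iNZM groups were fitted). Tnc, the gene for the wound matrix protein tenascin C, was at 662, 613, 358 and 416 without UVB and 1967, 6867, 9053, 4464 and 4179 after it and rose by 3.24 ± 0.52 on the log2 scale (SE, limma adjusted p = 2.12e-05). Timp1, an inhibitor of matrix proteases, was at 70.8, 26.3, 42.9 and 29.2 without UVB and 204, 1145, 2207, 148 and 312 after it and rose by 3.57 ± 0.80 on the log2 scale (SE, limma adjusted p = 0.0011). Mmp10, a stromelysin gene, was at 0, 0.972, 0.825 and 3.13 without UVB and 26.6, 33, 63.9, 3.85 and 8.08 after it and rose by 3.30 ± 0.64 on the log2 scale (SE, limma adjusted p = 0.000235). Of 23 collagen and matrix genes 1 rose and 1 fell (4.35% each, against 12.8% and 12.4% of all genes), or 1 and 0 without 6 and 49. Col1a1 differed by -0.26 ± 0.66 (adjusted p = 0.8).

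**Figure D3:**
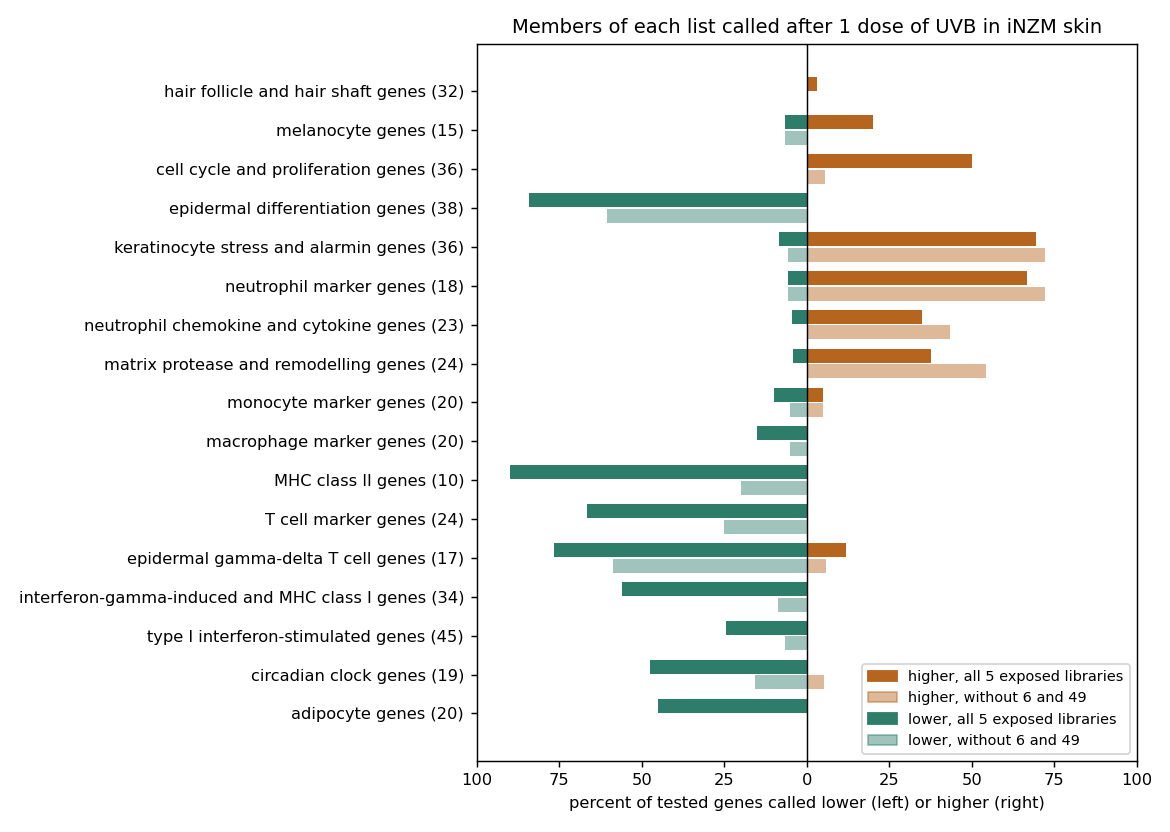
Percent of the tested genes of 17 lists (number in brackets) that were called higher (brown, right) or lower (green, left) after 1 dose of UVB, with all 5 exposed libraries (dark) and without libraries 6 and 49 (pale). Without the 2 libraries the higher calls go from 25 to 26 for stress, 12 to 13 for neutrophil and 9 to 13 for remodelling genes, while proliferation genes go from 18 to 2, MHC class II genes from 9 to 2 and adipocyte genes from 9 to 0.

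Genes of antigen presentation were lower after UVB, to an extent that depended on libraries 6 and 49. MHC class II genes fell in 9 of 10 (median -2.31) and in 2 of 10 without them (median -1.19). Without all 9 libraries of the study with a hair level above 5, 6 of 10 fell at the same median. When only the iNZM groups were fitted 1 of 10 fell. H2-Ab1, a chain of the class II molecule, was at 9533, 8816, 11800 and 11980 without UVB and 3139, 5715, 5204, 475 and 977 after it. It fell by 2.30 ± 0.51 on the log2 scale (SE, limma adjusted p = 0.00102), and without 6 and 49 the difference was -1.20 ± 0.45 (adjusted p = 0.0617). Its adjusted p was 0.0536 when only the iNZM groups were fitted. Each of the 5 exposed libraries had all 10 genes below all unexposed libraries. Of all genes, between 31.2% and 38.3% lay below them in a single exposed library, and 10.4% were lower with no overlap of the groups. Genes induced by interferon gamma, with MHC class I, fell in 19 of 34 (55.9%) and rose in 0 (median -1.34). Without 6 and 49, 3 of 34 fell, where 1542 of all 19170 genes did. Without library 6 alone 12 fell, and 10 fell when only the iNZM groups were fitted. Without all 9 libraries high in hair genes 12 fell. B2m, the common light chain of class I, was at 25500, 24780, 26850 and 26440 without UVB and 13400, 17560, 16670, 3705 and 4675 after it and fell by 1.48 ± 0.35 on the log2 scale (SE, limma adjusted p = 0.00166), or -0.71 ± 0.30 (adjusted p = 0.106) without 6 and 49, and had an adjusted p of 0.0636 when only the iNZM groups were fitted. Tap1, the peptide transporter, was at 4941, 4457, 4977 and 4357 without UVB and 2726, 2601, 2016, 1021 and 1193 after it and fell by 1.40 ± 0.27 on the log2 scale (SE, limma adjusted p = 0.000195). H2-T23, a nonclassical class I gene, was at 5378, 5301, 7177 and 6814 without UVB and 2987, 3271, 2577, 651 and 968 after it and fell by 1.81 ± 0.36 on the log2 scale (SE, limma adjusted p = 0.000298).

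The promoters of B2m and H2-T23 are shown since both genes fell and hold a match to the interferon-stimulated element, searched on both strands as GAAA, any 2 bases and GAAA. They are drawn as above, with B2m at chr2:122147437-122147686 (plus strand) and H2-T23 at chr17:36032702-36032951 (minus strand), where the match reads on the opposite strand.
B2m: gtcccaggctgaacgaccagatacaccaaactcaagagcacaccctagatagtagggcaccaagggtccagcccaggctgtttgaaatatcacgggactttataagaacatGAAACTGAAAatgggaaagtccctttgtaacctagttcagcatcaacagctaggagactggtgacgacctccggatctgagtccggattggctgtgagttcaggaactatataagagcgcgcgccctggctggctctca
H2-T23: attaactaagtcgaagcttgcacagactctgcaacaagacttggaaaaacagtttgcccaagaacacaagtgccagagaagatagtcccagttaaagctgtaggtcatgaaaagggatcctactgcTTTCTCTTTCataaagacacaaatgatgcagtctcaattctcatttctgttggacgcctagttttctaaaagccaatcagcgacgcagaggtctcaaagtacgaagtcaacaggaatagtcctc
The element was in 12 of 26 promoters of this list (46.2%), in 14 of 32 of the type I interferon-stimulated genes (43.8%) and in 3.46% of all 27025.

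The Langerhans cell gene Cd207 and 16 of 24 T cell genes fell after UVB. Cd207 encodes langerin, which defines Langerhans cells. It was at 1383, 1241, 1540 and 1606 without UVB and 329.6, 453, 455, 71.3 and 60.6 after it and fell by 2.86 ± 0.53 on the log2 scale (SE, limma adjusted p = 0.000119), or -1.81 ± 0.49 (adjusted p = 0.00871) without 6 and 49. Of 20 dendritic and Langerhans cell genes 7 fell and 2 rose (4 and 2 without them). The level of that list in libraries 9 (0.70) and 10 (1.07) was within the unexposed range of 0.58 to 1.11, and it was below that range in 48, 6 and 49. Fscn1, an actin-bundling gene of migrating dendritic cells that other cells use as well, rose, at 589, 599, 627 and 583 without UVB and 1190, 3020, 2974, 2404 and 2542 after it (adjusted p = 0.00219). T cell genes fell in 16 of 24 and rose in 0 (median -1.98). In 6 of 24 they fell without 6 and 49, and in 10 of 24 without all 9 libraries high in hair genes. When only the iNZM groups were fitted 9 of 24 fell. Cd3e, a chain of the T cell receptor complex, was at 288, 395, 318 and 291 without UVB and 28.5, 107, 69.7, 13.5 and 16.2 after it and fell by 3.18 ± 0.51 on the log2 scale (SE, limma adjusted p = 1.85e-05).

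Epidermal gamma-delta T cell genes fell in 13 of 17 and rose in 2 (median -2.58), and in 10 and 1 without 6 and 49. Trdc, the constant segment of the delta chain, was at 80.6, 129, 179.8 and 117 without UVB and 9.84, 34.1, 24.4, 5.78 and 8.08 after it and fell by 3.10 ± 0.61 on the log2 scale (SE, limma adjusted p = 0.000254). Tcrg-V5, a variable segment of the gamma chain used by these cells, was at 28.3, 27.2, 41.2 and 22.9 without UVB and 0, 4.4, 0, 0 and 0 after it and fell by 4.43 ± 0.54 on the log2 scale (SE, limma adjusted p = 2.92e-07). Areg, a list member that encodes the EGF receptor ligand amphiregulin and that keratinocytes make too, rose, at 146, 93.3, 94 and 158 without UVB and 888, 1446, 1203, 341 and 658 after it, by 2.75 ± 0.49.

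Chemokine genes for monocytes and lymphocytes fell in 9 of 26 and rose in 1 (6 and 2 without 6 and 49). Ccl27a, a keratinocyte chemokine for skin-homing T cells, had the smallest adjusted p of all genes named here. It was at 5533, 5011, 3481 and 3843 without UVB and 271, 239.6, 130.2, 113 and 157 after it and fell by 4.67 ± 0.38 on the log2 scale (SE, limma adjusted p = 2.98e-10). Cxcl9 and Cxcl10, chemokine genes induced by interferon, fell. Cxcl10 was at 129.6, 122, 138 and 59.4 without UVB and 11.8, 13.2, 1.68, 14.4 and 11.1 after it and fell by 3.46 ± 0.57 on the log2 scale (SE, limma adjusted p = 2.73e-05). Cxcl9 was at 435, 382, 558 and 373 without UVB and 127, 83.5, 55.5, 11.6 and 35.4 after it and fell by 3.15 ± 0.63 on the log2 scale (SE, limma adjusted p = 0.000319).

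Of 45 type I interferon-stimulated genes 11 fell (24.4%, against 12.4% of all genes) and 0 rose (median -0.84). Without 6 and 49, 3 of the 45 fell, where 1542 of all 19170 genes did. Leaving out library 6, library 49 or unexposed library 39 alone left 7. Without all 9 libraries high in hair genes 8 fell. The antiviral sensor gene Ifih1 was at 758, 703, 822 and 733 without UVB and 478, 337, 483, 235 and 244 after it and fell by 1.15 ± 0.26 on the log2 scale (SE, limma adjusted p = 0.00133). Isg15, an interferon-induced ubiquitin-like gene, was at 78.4, 118, 104 and 75.1 without UVB and 70.8, 52.8, 65.5, 169.6 and 146 after it. Its difference was -0.02 ± 0.61 (adjusted p = 0.984), and here 6 and 49 were the highest exposed libraries. Mx1 was at 16.3, 13.6, 16.5 and 8.34 without UVB and 4.92, 3.3, 8.4, 4.82 and 4.04 after it, below 20 in every library. It was not called in the main limma fit (adjusted p = 0.242). When only the iNZM groups were fitted it was called, with a difference of -1.28 (limma adjusted p = 0.0469). Among the 10 Oas genes, which encode sensors of double-stranded RNA or their relatives, 3 fell (chosen after their values were seen). They were Oas1c, Oas1e and Oas1f. Not called were Oas1a, Oas1b, Oas1g, Oas2, Oas3, Oasl1 and Oasl2, with values of 77.3 or less in the 9 libraries. Of these, Oas2 and Oasl1 had differences of 0.37 and 0.60. Oas1e was at 110, 80.7, 120.4 and 176 without UVB and 0, 0, 0, 0 and 2.02 after it and fell by 6.57 ± 0.68 on the log2 scale (SE, limma adjusted p = 2.27e-08).

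Of the 6 interferon receptor genes 1 was higher and 2 lower (0 and 1 without 6 and 49). Over all genes 12.8% were higher and 12.4% lower. Ifnar1 differed by 0.41 ± 0.14 (adjusted p = 0.0291, and 0.0503 without 6 and 49). Its call was also lost without library 48 (adjusted p = 0.074), 10 (0.0557), 37 (0.0941) or 39 (0.0574). Ifngr1 and Ifngr2, the chains for interferon gamma, were lower with adjusted p of 0.00363 and 0.00666, and 0.156 and 0.209 without 6 and 49. Ifnar2 was at 326, 384, 349 and 346 without UVB and 293, 467, 619, 226 and 206 after it, with a difference of -0.09 ± 0.30.

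The response to DNA damage was followed through p53 targets and repair genes. Targets of p53, the transcription factor that DNA damage activates, rose in 8 of 31 (25.8%) and fell in 5 (16.1%), with a median of 0.08. Over all genes 12.8% rose and 12.4% fell, so the share of falls was near that of all genes. Without 6 and 49, 7 rose and 2 fell (median 0.36), where 1511 and 1542 of all 19170 genes did. Tnfrsf10b, a death receptor gene, was at 138, 151, 109.7 and 142 without UVB and 584, 645, 867, 271 and 279.9 after it and rose by 1.82 ± 0.28 on the log2 scale (SE, limma adjusted p = 9.31e-06). Bax and Pmaip1, which promote cell death at the mitochondrion, rose by 1.08 ± 0.17 and 1.31 ± 0.26. Mdm2, which holds p53 in check, was at 1045, 1069, 1039 and 1092 without UVB and 1524, 1644, 1938, 1372 and 1411 after it and rose by 0.56 ± 0.14 on the log2 scale (SE, limma adjusted p = 0.0031). Cdkn1a, the cell cycle inhibitor p21, was at 4115, 3407, 5336 and 6664 without UVB and 5885, 9548, 10070, 5471 and 4860 after it. It was not called in the main limma fit (adjusted p = 0.0801). It was called higher in limma with sample quality weights (adjusted p = 0.0314), with quantile scaling (0.0293) and without 6 and 49 (0.022). Nucleotide excision repair genes, which remove UVB lesions, rose in 8 of 24 (33.3%) and fell in 2 (8.33%). There were 5 rises without library 6, 39 or 40 alone and 4 without 6 and 49. Xpc, the lesion recognition gene, was at 1201, 1274, 1270 and 1055 without UVB and 876, 719.8, 699, 889 and 980.2 after it and fell by 0.53 ± 0.11 on the log2 scale (SE, limma adjusted p = 0.00042). Gtf2h1, a subunit of the repair and transcription factor TFIIH, was at 994, 1014, 945 and 1039 without UVB and 1352, 1489, 1344, 1318 and 1279 after it and rose by 0.44 ± 0.09 on the log2 scale (SE, limma adjusted p = 0.000491).

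Antioxidant genes driven by NRF2 rose in 7 of 25 (28%) and fell in 4 (16%), or 7 and 3 without 6 and 49. Over all genes 12.8% rose and 12.4% fell. Slc7a11, the cystine importer, was at 71.9, 26.3, 45.4 and 28.2 without UVB and 129.9, 265, 220.2, 332 and 299 after it and rose by 2.56 ± 0.47 on the log2 scale (SE, limma adjusted p = 0.000111). Gsta2, a glutathione transferase gene, was at 285, 266, 413 and 391 without UVB and 44.3, 38.5, 21.9, 59.8 and 40.4 after it and fell by 3.06 ± 0.43 on the log2 scale (SE, limma adjusted p = 2.75e-06). Of 25 AP-1 and immediate-early genes 8 rose (32%) and 4 fell (16%), or 8 and 1 without 6 and 49. In both lists the share of falls was near the 12.4% of all genes. The AP-1 list was led by Fosl1, an AP-1 subunit, at 67.5, 35, 39.6 and 123 without UVB and 702, 1721, 1160, 175 and 352 after it and a rise of 3.37 ± 0.53. Stress genes of protein folding rose in 6 of 16 and fell in 4 (8 and 2 without 6 and 49), and Atf4, a regulator of the stress response, was at 3595, 3568, 2661 and 3480 without UVB and 6993, 6135, 5486, 5148 and 4724 after it and rose by 0.77 ± 0.13 on the log2 scale (SE, limma adjusted p = 2.84e-05).

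Ligands of the EGF receptor family split evenly, with 5 of 14 genes of that list higher and 5 lower (4 and 4 without 6 and 49). Nrg1 rose, at 51.2, 20.4, 27.2 and 73 without UVB and 305, 703, 723, 280.4 and 271 after it, by 3.40 ± 0.58, while Btc, the gene for betacellulin, fell, at 624, 563, 1125 and 1249 without UVB and 92.5, 123, 231, 30.8 and 52.5 after it, by 3.29 ± 0.47. Of 19 prostaglandin genes 4 rose and 4 fell (21.1% each, against 12.8% and 12.4% of all genes), or 4 and 3 without 6 and 49. Ptgs2, the inducible cyclooxygenase, was at 45.8, 64.2, 16.5 and 34.4 without UVB and 501, 558, 774, 98.3 and 138 after it and rose by 3.08 ± 0.55 on the log2 scale (SE, limma adjusted p = 8.68e-05). Hpgds, a prostaglandin D synthase gene, was at 1738, 1692, 1939 and 2438 without UVB and 345, 499, 417, 168 and 292 after it and fell by 2.58 ± 0.42 on the log2 scale (SE, limma adjusted p = 2.64e-05).

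Proliferation genes rose in 18 of 36 and fell in 0 (median 1.09), but in 2 of 36 without libraries 6 and 49. Leaving out 6 alone left 5 and leaving out 49, 39 or 40 alone left 6. Mki67, a marker of dividing cells, was at 2092, 2217, 1199 and 808 without UVB and 2788, 1834, 1323, 9478 and 11220 after it. Its call (adjusted p = 0.0485) was lost without 6 and 49 (adjusted p = 0.689) and without any 1 of the libraries 6, 49, 39 and 40, and libraries 9 and 10 overlapped the unexposed ones. Rrm2, which makes DNA building blocks, was at 757, 688, 647 and 626 without UVB and 2107, 2224, 1798, 3316 and 2904 after it and rose by 1.83 ± 0.27 on the log2 scale (SE, limma adjusted p = 7.5e-06), and Ccne1, the gene for cyclin E1, was at 50.1, 125, 72.6 and 80.3 without UVB and 299, 252, 229, 482 and 497 after it and rose by 2.08 ± 0.32 on the log2 scale (SE, limma adjusted p = 9.84e-06). These were the 2 that were called without 6 and 49 as well.

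Circadian clock genes fell in 9 of 19 and rose in 0 (median -0.73), and in 3 and 1 without 6 and 49. Without all 9 libraries high in hair genes 9 fell and 1 rose. Hlf, a clock output factor, was at 1369, 1514, 1809 and 1497 without UVB and 311, 356, 209, 456 and 358 after it and fell by 2.23 ± 0.24 on the log2 scale (SE, limma adjusted p = 2.81e-08). Dbp, a factor of the same family, was at 2155, 2740, 2392 and 2239 without UVB and 1254, 825, 667, 244 and 216 after it and fell by 2.20 ± 0.40 on the log2 scale (SE, limma adjusted p = 9.1e-05), lowest in 6 and 49. Per1 was at 2255, 2435, 2406 and 1801 without UVB and 1546, 2066, 1299, 883 and 1059 after it and was not called (adjusted p = 0.0533), but passed the threshold without library 48 (0.0486) or 9 (0.0216). The labels give no hour of day for the biopsies. Tef, the third factor of the Hlf family, differed by -1.23 ± 0.28 (adjusted p = 0.00151, and 0.0679 without 6 and 49). Its promoter is shown for its E-box, the CACGTG hexamer bound by clock factors, at chr15:81802423-81802672 (plus strand, GRCm38.p6, match in capitals).
Tef: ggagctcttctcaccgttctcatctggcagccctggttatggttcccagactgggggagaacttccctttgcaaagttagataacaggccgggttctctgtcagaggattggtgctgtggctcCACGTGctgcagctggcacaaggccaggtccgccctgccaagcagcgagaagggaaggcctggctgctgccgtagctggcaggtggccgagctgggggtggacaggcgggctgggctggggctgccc
An E-box was in 5 of 16 clock promoters (31.2%) and in 6.86% of all 27025.

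Adipocyte genes fell in 9 of 20 with all libraries and in 0 without 6 and 49, or in 2 without any 1 of the libraries 6, 49, 39 and 40. Adipoq, the gene for adiponectin, was at 1059, 1455, 2806 and 3494 without UVB and 170.2, 658, 1560, 205 and 185 after it (adjusted p = 0.0082, and 0.108 without 6 and 49). Endothelial genes fell in 3 of 19 (15.8%) and skeletal muscle genes in 1 of 20, against 12.4% lower over all genes, and 0 of either list fell without 6 and 49, where 1 endothelial gene rose. Libraries 9 and 10 had 13 and 15 of the 19 endothelial genes above all unexposed libraries, and library 6 had all 19 below them. Of all genes, 32.1% and 32.9% lay above them in 9 and 10, and 38.3% below them in 6. Cholesterol synthesis genes rose in 3 of 22 (13.6%), near the 12.8% of all genes, and also in 3 without 6 and 49. Scd3, a desaturase gene of sebaceous glands, was at 8065, 12000, 13170 and 11440 without UVB and 1076, 1154, 1493, 729.5 and 215 after it and fell by 3.81 ± 0.69 on the log2 scale (SE, limma adjusted p = 9.18e-05). Elovl3, a fatty acid elongase gene of the same glands, went the other way at 2025, 2868, 1709 and 1801 without UVB and 15090, 13370, 5327, 4075 and 4112 after it and rose by 1.79 ± 0.60 on the log2 scale (SE, limma adjusted p = 0.0265), a call lost without library 48 (adjusted p = 0.07), 9 (0.0648), 37 (0.0525), 39 (0.0686) or 40 (0.0649).

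The response was then set against that of the other lines through the difference in response itself. Against NZM 1 gene of 19170 was called (0.00522%), and 1215 had an unadjusted p below 0.05. edgeR called 0 and DESeq2 called 5. The gene has only a clone name, RP24-208K8.1, and low counts: 0 to 0.825 without and 3.3 to 16.2 with UVB in iNZM, against 4.62 to 11 and 0 to 4.72 in NZM, a difference of 5.10 ± 0.87 (adjusted p = 0.0165). Against WT 71 genes were called (0.37%), 21 higher and 50 lower, with 46 in edgeR (16 higher, 30 lower), 397 in DESeq2 (275 higher, 122 lower) and 20 in limma without 6 and 49. No list member was called against NZM.

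Cxcl1 rose by 2.91 ± 0.75 in iNZM, 4.06 ± 0.71 in NZM and 8.21 ± 0.75 in WT, a difference from WT of -5.30 ± 1.06 (adjusted p = 0.0135). The exposed libraries overlapped, at 236 to 2120 in iNZM and 759.9 to 2851 in WT. The unexposed ones did not, at 67.8 to 148 in iNZM and 2.32 to 4.95 in WT. The difference from WT was lost without 6 and 49 (adjusted p = 0.117). Cxcl10 fell in iNZM and differed by 1.12 ± 0.57 in WT, a difference between the lines of -4.57 ± 0.81 (adjusted p = 0.00315). Rrad, a gene for a small GTP-binding protein, rose by 5.79 ± 0.69 in WT and was not called in iNZM, with a difference of -4.25 ± 0.97 (adjusted p = 0.0342) that was lost without 6 and 49 (adjusted p = 0.277) and in edgeR (0.225). Saa2 was at 0 to 21 after UVB in iNZM and at 53.7 to 569.5 in WT. That difference was -5.67 ± 1.11 (adjusted p = 0.0106) and was lost in edgeR (adjusted p = 0.973) and without 6 and 49 (0.111). Skint9 was listed at 0 in all WT libraries of both groups, so its difference from WT says nothing of the response.

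In the other direction, Hsd17b14, a hydroxysteroid dehydrogenase gene, was at 268, 293, 301 and 299 without UVB and 595, 603, 255, 572 and 422 after it in iNZM and not called there, while it fell by 2.12 ± 0.27 in WT, a difference of 2.81 ± 0.39 (adjusted p = 7.31e-05). Fam111a, a protease gene that helps DNA replication, differed between the lines by 1.86 ± 0.29 (adjusted p = 0.000515), with a fall of 1.33 ± 0.21 in WT. Tmem88b rose in iNZM, at 10.9, 16.5, 19 and 15.6 without UVB and 116, 144, 76.5, 106 and 88.9 after it, by 2.69 ± 0.31, against 1.92 ± 0.30 in NZM and 0.38 ± 0.31 in WT, a difference from WT of 2.31 ± 0.44 (adjusted p = 0.00872). The calls against WT of Cxcl10, Hsd17b14, Fam111a and Tmem88b held without 6 and 49 and in edgeR. Those of Tspan18, Pla2g3 and Hs3st3b1, which were higher in iNZM as well, and of Cxcl2, which was lower, had adjusted p of 0.283, 0.334, 0.114 and 0.206 without 6 and 49.

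**Figure D4:**
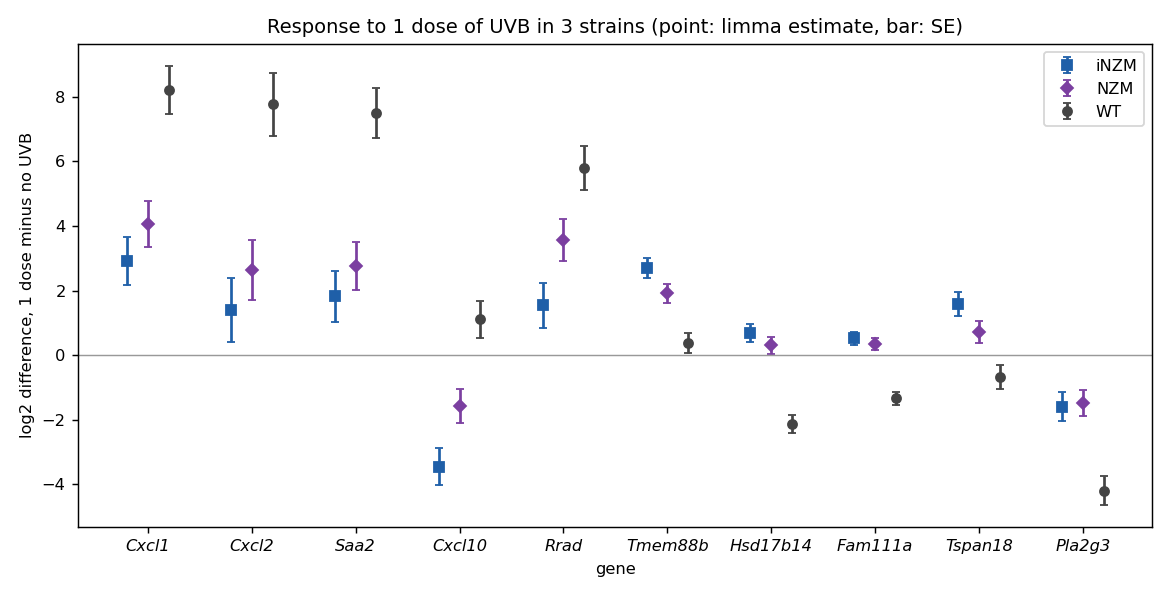
Log2 difference between 1 dose of UVB and none (y axis, limma estimate with SE) for 10 genes in iNZM (blue squares), NZM (purple diamonds) and WT (black circles). The 5 genes on the left had a lower difference in iNZM than in WT and the 5 on the right a higher one, and the NZM point lies between the other two for every gene but Pla2g3.

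Some values are also given for the iNZM group after 5 daily doses of 100 mJ/cm2. That group differs in dose and in number of exposures and is set against the same unexposed libraries, so values are listed without a comparison. Saa3 was at 16.3 to 75.8, Il24 at 0 to 38.3 and Lce3d at 22.3 to 249. Among genes that fell after 1 dose, Pyy was at 0 to 7.84, Kcnj16 at 20.8 to 84.3 and Mrgprb9-ps at 0 to 14.6. The values of Lce1m, Skint9 and Fcgbp, which also fell after 1 dose, were 2321 to 7994, 398 to 1465 and 862 to 4673.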

How the data were processed

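Poly-A RNA of mouse back skin was sequenced with paired reads of 151 bases, and the authors deposited 1 normalised signal per gene and library. Per the submitters' processing notes STAR, HTSeq and DESeq2 were used on build mm10, with versions, annotation and filters not given in the sources used here. Each deposited signal is taken as reads over a size factor, since all values of a library are whole multiples of 1 step (100% within 0.01), and the recovered counts served edgeR 4.0.16 and DESeq2 1.42.0. Replicate libraries differed by 15.79 or more in chi-square per gene, so none were merged.

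Libraries were grouped by their labels. Genes with 10 or more in at least 4 of 43 libraries were tested with limma-trend (version 3.58.1, R 4.3.3) on log2(value + 1), 1 mean per group over the 9 groups, two-sided, Benjamini-Hochberg adjusted over 19170 genes at 0.05. Interactions compare the response with that of NZM and WT. The 40 gene lists, the genes named and the comparison were chosen with earlier results of these data known. Named were the 15 largest rises and 15 largest falls (called, higher group's mean 100 or more, no overlap, no predicted models), up to 5 members per list, up to 6 per direction of an interaction, and 32 genes fixed by name. Lists are described by counts and medians, with no test. On simulated data with these groups limma called 96% of the genes set to a 4-fold change, among 19170. It called 21% of those set to a 2-fold change, with 7 false calls. Real replicate libraries differed by 15.79 to 394.6 in chi-square per gene. Whether the simulated libraries spread as widely was not tested, so these shares and false calls hold for the simulated data only. Promoters (250 bases before the start) came from RefSeq on GRCm38.p6, present for 11692 of the genes tested, and positions from GENCODE vM21. The settings tried were pseudocounts of 0.5 and 8, other filters and scalings, covariates, weights, both count tools, a threshold of 0.01 and fits without single libraries. Figures and tables used matplotlib 3.10.9, numpy 2.4.6 and pandas 2.3.3 under Python 3.11.15.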

Additional observations from a re-analysis of the deposited data

Results flagged for a closer look

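Among 214 groups of 4 or 5 libraries (107 named genes), 13 held a library far from the others on the log2 scale, where chance gives about 1 in 20. The gap to the nearest library took 1 of the whole range for Il24 without UVB (library 39), Trem1 and Fpr2 without UVB (library 40), and for Mrgprb9-ps (48), Oas1e (49) and Tcrg-V5 (9) after UVB, in each of which the others had no reads. After UVB library 6 was far below the others for Il24 (0.738 of the range, at 10.6 against 150.6 for the next). Library 10 was far below for Cxcl10 (0.861, at 1.68 against 11.1), library 48 for Fscn1 (0.755, at 1190 against 2404) and library 49 for Bax (0.734, at 467 against 552). Without UVB library 38 was lowest for Il20ra (0.865), library 40 for Cxcl10 (0.851) and library 39 for Atf4 (0.892).

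With all libraries in limma, the interaction test called these genes between lines. Against WT the log2 difference was lower in iNZM for Cxcl2 (-6.38), Skint9 (-5.98, listed at 0 in WT), Saa2 (-5.67), Cxcl1 (-5.30), Cxcl10 (-4.57) and Rrad (-4.25). It was higher for Hsd17b14 (2.81), Pla2g3 (2.60), Tmem88b (2.31), Tspan18 (2.26), Hs3st3b1 (2.19) and Fam111a (1.86). Against NZM it was higher for RP24-208K8.1 (5.10). Without 6 and 49 the calls of Cxcl2, Saa2, Cxcl1, Rrad, Pla2g3, Tspan18 and Hs3st3b1 against WT were lost, as was the one against NZM. The value of Skint9 says nothing of the response.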

How the results depend on the processing

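No paired analysis was possible because the groups compared share no sample numbers in the labels. The 4833 genes called became 3102 (1568 higher, 1534 lower) when only the compared groups were fitted, 3053 (1511 and 1542) without libraries 6 and 49, 3042 (1486 and 1556) when TMM scaling was added to that, and 2704 (1331 and 1373) at a threshold of 0.01. Of the calls 50.7% were higher in limma, 59.6% in edgeR and 60.4% in DESeq2. Under TMM and quantile scaling they were 50.9% and 53.9%. Over all lists the 219 lower calls became 136 with only the compared groups, 94 without 6 and 49 (94 with TMM) and 144 at 0.01. The 135 higher calls became 220 in DESeq2 and 76 at 0.01. With only the compared groups the higher calls went from 18 to 11 for proliferation genes and from 8 to 5 each for excision repair and AP-1 genes, and the lower ones from 10 to 5 for NF-kB genes, 8 to 4 for barrier lipid genes and 9 to 3 for adipocyte genes. With the hair covariate 6 proliferation and 4 excision repair genes were higher and 3 adipocyte genes lower. A filter at 50 left 8 of 13 gamma-delta T cell genes. DESeq2 called 30 proliferation, 31 hair and 12 melanocyte genes higher, and edgeR 4 adipocyte genes lower. At 0.01 were called 5 proliferation, 3 excision repair, 4 AP-1 and 7 neutrophil genes higher, and 4 NF-kB, 6 type I interferon-stimulated, 5 clock and 2 adipocyte genes lower. Of the 216 results on genes chosen by the naming rule, 69 lost and 2 gained a call without 6 and 49, 48 lost and 1 gained one with only the compared groups, 20 and 2 did in edgeR and 13 and 3 in DESeq2. Of the 111 on genes named in the text these were 20 and 2, 15 and 1, 7 and 2, and 4 and 3.

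The difference in response from WT (71 genes) gave 113 genes with a pseudocount of 8, 28 with only the compared groups, 116 with the hair follicle level as covariate, 157 with sample quality weights, 46 in edgeR, 397 in DESeq2, 20 without 6 and 49 (21 with TMM) and 16 at 0.01. Without single libraries it ran from 32 to 174, with 36, 33, 114 and 174 without the exposed iNZM libraries 6, 49, 9 and 10, 32 and 46 without the unexposed 37 and 40, 47 without the exposed WT library 50, and 34 and 40 without the unexposed WT libraries 43 and 44. The 1 gene that differed from NZM became 0 with a filter at 50, with only the compared groups, with weights, in edgeR, without 6 and 49 (also with TMM), without all 9 libraries with a hair level above 5 and at 0.01, and 5 in DESeq2. Without single libraries it was 0 or 1.

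Signs turned only for genes that were not called. Krt14 became 0.59 (quantile), 0.035 (hair covariate), 0.067 (weights) and 0.17 without 6 and 49 (0.16 with TMM, and 0.17 without all libraries high in hair genes). Ifnar2 became 0.18 (hair covariate), 0.11 (weights), 0.046 (edgeR), 0.045 (DESeq2), and 0.33, 0.32 and 0.33 in the 3 fits without 6 and 49, and ran from -0.311 to 0.085 without single libraries. Krt35 became -0.10 (hair covariate) and -0.18, -0.19 and -0.18 in those 3 fits. Isg15 became 0.10 (quantile), 0.12 (edgeR), 0.11 (DESeq2) and -0.247 to 0.169 without single libraries. Trp63 became 0.066 (quantile), Col1a1 0.032 (covariate for sample numbers of 46 or above) and -0.492 to 0.222 without single libraries, and Ccl2 ran from -0.443 to 0.636 without single libraries. The cause was not tested. The 2 fits that leave out 6 and 49 with TMM, or all libraries high in hair genes, were added after seeing the data. Errors are SE over libraries, the floor covers counting error only, and 4 or 5 libraries a group limit the precision.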
